A study of Mus musculus with 2 samples.

Results

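The genes described here encode the proteins of the mitochondrial ribosome. They were chosen by symbol: every protein-coding gene of the GENCODE M21 mouse annotation whose symbol starts with Mrpl or Mrps followed by a digit. There were 78 such genes of 21911 protein-coding genes in all, 49 named Mrpl, for the large subunit, and 29 named Mrps, for the small subunit, and they lay on 17 chromosomes. Accessible chromatin was measured by DNase-seq, in which the enzyme DNase I cuts open DNA in nuclei and the cut ends are sequenced, in gastrocnemius, the large calf muscle. Both libraries came from female mice of the strain B6CASTF1/J, a first-generation hybrid, at an age of 2 months, and they formed 1 group. Each library came from a biosample of its own, but the labels give both the same donor identifier, so the spread between them may be partly technical. With 1 group there was no comparison between conditions, and the members were set beside all protein-coding genes as a description.

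Mitochondria carry their own small genome, and the few proteins it encodes are subunits of the oxidative phosphorylation complexes. They are made inside the organelle by a dedicated ribosome, whose RNA is mitochondrial but whose proteins are all encoded in the nucleus, made in the cytosol and imported. Skeletal muscle is rich in mitochondria, and the factors NRF1, GABP (of the ETS family) and YY1 are textbook regulators of nuclear genes for mitochondrial proteins.

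Every one of the 78 promoters was accessible in both libraries. A promoter was counted when each library had a peak, a stretch that the authors called accessible, within 1 kb of an annotated start of the gene. By the same count 60.2% of all protein-coding genes were open in the pair of libraries, 60.8% in replicate 1 and 71.1% in replicate 2. The strongest promoter peaks of the libraries overlapped each other at all 78 members. A member had 1 to 5 promoter peaks in replicate 1 and 1 to 10 in replicate 2. Replicate 1 was the sparser library, with 66984 peaks against 258342, and sequencing depth is not given in the sources used here. The tissue label was checked against marker genes: 10 of 10 skeletal muscle promoters were open in both libraries, against 0 of 5 hepatocyte, 0 of 5 macrophage, 1 of 5 heart, 2 of 5 neuron, 2 of 5 T cell, 4 of 5 endothelial and 5 of 5 fibroblast genes. Endothelial and fibroblast promoters were thus open as well, and the macrophage genes were open at 4 of 5 in replicate 2 but at 0 in the sparser replicate 1. The share of nuclei from each cell type was not measured.

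In strength the members stood at the level of a typical open promoter, with a somewhat higher first quartile. Strength is given as the percentile of the authors' peak signal among all peaks of the same library, because the scale of the signal is not stated. The median over the 78 members was 87.7 in replicate 1 and 97.1 in replicate 2. The mean of these medians was 92.4 ± 6.61 (SD, n = 2). The lists differ in length, at 66984 and 258342 peaks, so this SD does not measure the spread between replicates alone. With equal numbers of strongest peaks the mean was 88.2. Over the 13187 coding genes with a promoter peak in both libraries the medians were 88.0 and 97.0, and over all coding genes, with 0 for a gene without a peak, 62.3 and 90.9. The first quartiles were 78.8 and 94.8 in the members and 73.2 and 93.5 in the coding genes with a peak in both libraries. The weakest member stood at 61.0 in replicate 1 and 86.1 in replicate 2, and the weakest open coding promoters at 1.25 and 13.1. A minimum over 78 genes is not comparable with one over 13187. Of the members, 19 (24.4%) lay in the top 5% of peaks of replicate 1, where the background over all coding genes was 15%, and 57 (73.1%) in that of replicate 2, where it was 40.6%. Among coding genes with a peak in both libraries these shares were 25.0% and 67.4%. The order of the members was alike in the libraries, with a Spearman rho of 0.940 and a Pearson r of 0.948 between log2 signals across the 78 genes, which are not independent replicates.

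**Figure D1:**
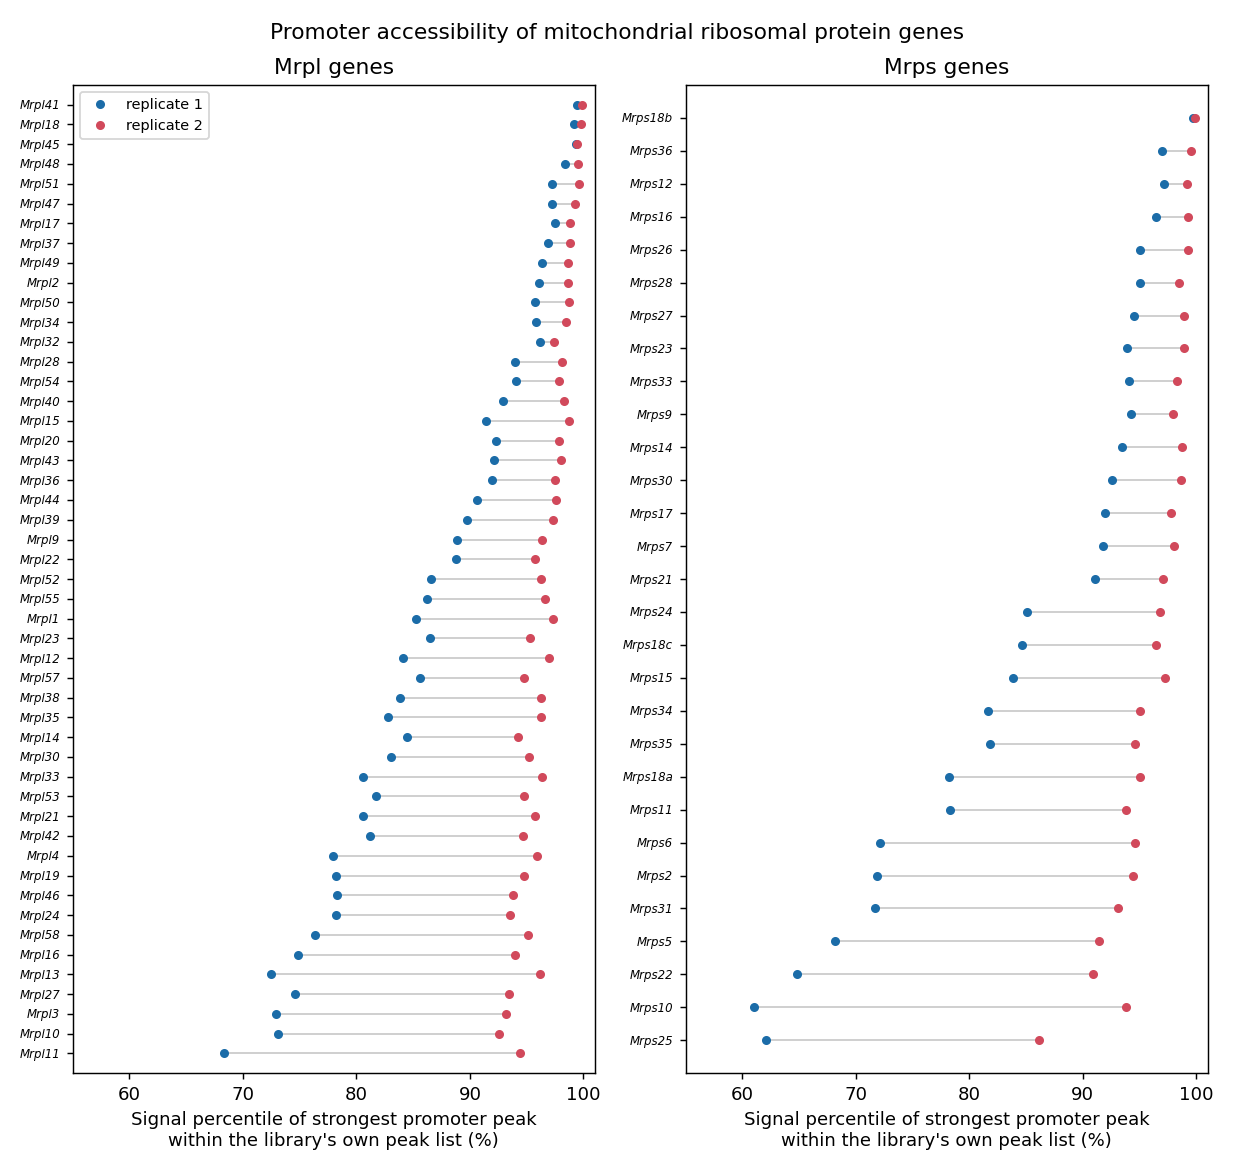
Signal percentile of the strongest promoter peak (horizontal axis, percent of peaks in the library's own list) for each Mrpl gene and each Mrps gene, with replicate 1 in blue and replicate 2 in red joined by a line. The lowest value is 61.0, for Mrps10, and Mrps18b, Mrpl41, Mrpl18 and Mrpl45 stood at 99.2 or above in both libraries.

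The strongest promoter was that of Mrps18b, 1 of the 3 paralogues of the bacterial ribosomal protein S18. Its peak signal was 12.1 in replicate 1 and 32.8 in replicate 2, percentiles 99.7 and 99.9. This peak (mm10 chr17:35916701-35917000 in replicate 1) had its midpoint at -461.5 bp from the nearest start of Mrps18b but only 68.5 bp from a start of the divergent gene Ppp1r10, which encodes a regulatory subunit of protein phosphatase 1, so it cannot be assigned to either gene alone. Mrpl41, a large-subunit protein, followed with signals of 10.6 and 31.0 (percentiles 99.5 and 99.9), and Mrpl18, which is involved in binding 5S rRNA, with 9.30 and 26.6 (99.2 and 99.8). Mrpl45, whose protein sits near the exit of the ribosomal tunnel, had 9.81 and 16.3 (99.3 and 99.4). The next 4 were Mrpl48, Mrpl51, Mrpl47 and Mrps36, between 97.0 and 98.4 in replicate 1 and between 99.3 and 99.6 in replicate 2. Mrps36 keeps its ribosomal symbol, although its protein is now known as a part of the 2-oxoglutarate dehydrogenase complex.

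The promoters of these 8 genes and of Mrpl12 and Mrps12 are shown because these 8 had the strongest promoter peaks of the family and the other two encode well known functional proteins. Each runs from 120 bases before to 30 bases from the annotated start nearest the strongest peaks, 5′ to 3′ on the gene's strand, from the RefSeq GRCm38.p6 (mm10) reference, which is the C57BL/6J allele. Capitals mark matches, on either strand, to CCGGAAG (ETS), AANATGGCG (YY1), GCGCNTGCGC (NRF1), GGGCGG (SP/KLF) and CCAAT (the NF-Y box).
Mrps18b (chr17:35916360-35916509, minus strand): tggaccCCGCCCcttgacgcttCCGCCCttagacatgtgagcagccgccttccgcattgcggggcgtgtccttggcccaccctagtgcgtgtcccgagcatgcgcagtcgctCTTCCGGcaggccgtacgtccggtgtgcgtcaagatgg
Mrpl41 (chr2:24975069-24975218, minus strand): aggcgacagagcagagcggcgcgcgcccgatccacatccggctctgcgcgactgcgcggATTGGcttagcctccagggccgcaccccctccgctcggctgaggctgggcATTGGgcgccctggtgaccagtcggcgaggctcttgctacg
Mrpl18 (chr17:12916173-12916322, minus strand): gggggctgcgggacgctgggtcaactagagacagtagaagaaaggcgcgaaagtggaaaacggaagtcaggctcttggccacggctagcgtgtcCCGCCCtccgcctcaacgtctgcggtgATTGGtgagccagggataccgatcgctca
Mrpl45 (chr11:97315596-97315745, plus strand): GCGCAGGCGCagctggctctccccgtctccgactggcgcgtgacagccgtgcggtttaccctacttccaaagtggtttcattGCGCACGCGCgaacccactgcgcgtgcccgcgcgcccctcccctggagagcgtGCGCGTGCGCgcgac
Mrpl48 (chr7:100607609-100607758, minus strand): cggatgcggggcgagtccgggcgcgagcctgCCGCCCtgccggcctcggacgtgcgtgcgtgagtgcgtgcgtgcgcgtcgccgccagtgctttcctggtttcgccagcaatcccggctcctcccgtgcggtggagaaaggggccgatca
Mrpl51 (chr6:125191681-125191830, plus strand): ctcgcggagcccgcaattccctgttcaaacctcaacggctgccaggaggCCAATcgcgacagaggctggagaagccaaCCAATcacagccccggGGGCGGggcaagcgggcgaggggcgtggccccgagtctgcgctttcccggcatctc
Mrpl47 (chr3:32737118-32737267, minus strand): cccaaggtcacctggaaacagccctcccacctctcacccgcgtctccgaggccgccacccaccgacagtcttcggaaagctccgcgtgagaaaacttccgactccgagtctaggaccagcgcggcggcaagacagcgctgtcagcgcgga
Mrps36 (chr13:100744102-100744251, minus strand): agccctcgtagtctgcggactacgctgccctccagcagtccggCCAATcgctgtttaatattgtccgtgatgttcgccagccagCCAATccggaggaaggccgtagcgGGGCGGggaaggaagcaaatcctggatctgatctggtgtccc
Mrpl12 (chr11:120484493-120484642, plus strand): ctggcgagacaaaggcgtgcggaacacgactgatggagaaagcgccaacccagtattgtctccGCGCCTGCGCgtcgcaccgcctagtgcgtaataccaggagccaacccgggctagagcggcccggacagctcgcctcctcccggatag
Mrps12 (chr7:28741791-28741940, minus strand): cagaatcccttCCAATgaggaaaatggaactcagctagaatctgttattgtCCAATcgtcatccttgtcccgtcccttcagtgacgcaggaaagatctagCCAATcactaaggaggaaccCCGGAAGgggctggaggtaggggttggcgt

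No single layout was common to these starts. Of the 5 motifs marked here, Mrpl45 held 3 NRF1 matches and no other, and Mrpl41 2 NF-Y boxes alone. Mrpl51 and Mrps36 held 2 NF-Y boxes with an SP/KLF match, and the Mrpl47 stretch none of the 5. The Mrps18b and Mrpl47 stretches do not overlap the strongest peak of their gene in either library, and the other 8 do. The strongest peak of Mrpl47 had its midpoint at 226.5 and 206.5 bp from the nearest start of Mrpl47 and at 69.5 and 49.5 bp from a start of Ndufb5, so the absence of matches in the printed stretch says nothing of that peak.

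At the low end, Mrps25, a small-subunit protein, had signals of 0.954 and 1.30 (percentiles 62.1 and 86.1), the lowest of the family in replicate 2. Mrps10 had 0.931 and 2.81 (61.0 and 93.8), the lowest in replicate 1 but not in replicate 2. Mrps22, Mrps5, Mrpl11, Mrps31, Mrpl10 and Mrpl3 completed the lowest 8, between 64.8 and 73.1 in replicate 1 and between 90.9 and 94.4 in replicate 2. All 8 still had a promoter peak and at least 1 footprint found in both libraries.

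Named genes of the family differed in strength, paralogues included. The paralogues of S18 stood apart: Mrps18b had percentiles of 99.7 and 99.9, Mrps18c 84.6 and 96.5, and Mrps18a, whose protein is built into the large subunit, 78.2 and 95.1. Mrps12, a protein of the decoding centre, stood at 97.1 and 99.2, Mrps5 and Mrps2, also of the small subunit, at 68.1 and 91.5 and at 71.8 and 94.4. Mrpl12, the stalk protein that also binds the mitochondrial RNA polymerase, stood at 84.1 and 97.0, and Mrpl10, the protein that anchors the stalk, at 73.1 and 92.6. Mrpl3, near the peptidyl transferase centre, stood at 72.9 and 93.2, and Mrpl58, a peptidyl-tRNA hydrolase related to release factors, at 76.4 and 95.2. Mrpl44, an RNase III-like subunit in which human disease mutations are known, stood at 90.7 and 97.6, Mrps16 at 96.4 and 99.2, Mrps7 at 91.7 and 98.0, Mrpl28 at 94.0 and 98.1, Mrps34 at 81.6 and 95.1 and Mrps22 at 64.8 and 90.9. In replicate 1 the 3 S18 paralogues alone covered more than the range between the quartiles of the family, which was 78.8 to 94.5. In replicate 2 they did not, as the lowest stood at 95.1 and the quartiles were 94.8 and 98.7. The highest value is that of the Mrps18b peak, which cannot be assigned to Mrps18b rather than Ppp1r10.

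Mrpl and Mrps genes were close to each other. The medians were 86.6 and 91.1 in replicate 1 and 96.6 and 97.2 in replicate 2, with Mrps genes higher each time, and the quartiles of the groups overlapped. Other housekeeping complexes gave similar strengths, and the list of each held genes that were not open in both libraries. Of 91 cytosolic ribosomal protein genes 83 were open in both libraries (medians 90.0 and 97.4), of 85 nuclear oxidative phosphorylation genes 79 (90.8 and 97.5), and of 50 proteasome genes 47 (90.1 and 97.2). These counts cover every symbol that the rule of each family finds, with 1 annotation record per symbol, tissue-specific and germline copies included. Most of the cytosolic ribosomal genes not open in both libraries carry -ps in the symbol, as Rpl10-ps3 and Rps12-ps3 do, and the others were Rpl39l and Rps27rt. The proteasome genes not open in both were Psma8, Psmb11 and Psme2b. Those of oxidative phosphorylation were Atp5o, Cox4i2, Cox6b2, Cox7b2, Cox8c and Ndufa4l2. Whether any of these symbols, Atp5o among them, has a further record with an open start was not tested.

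**Figure D2:**
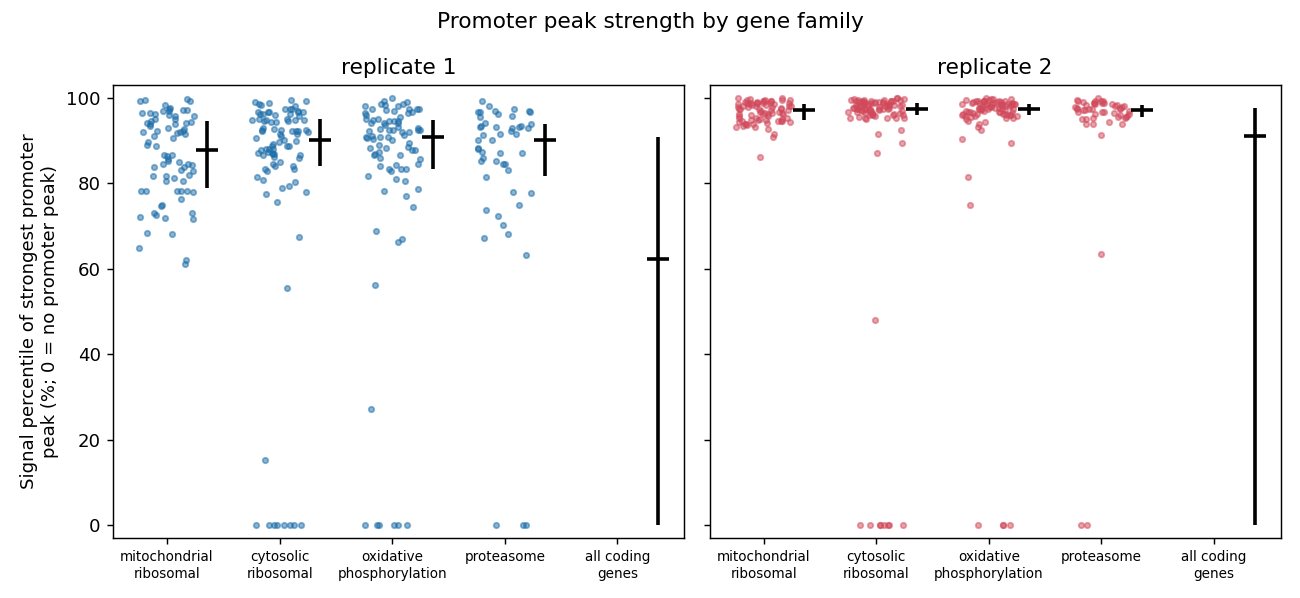
Signal percentile of the strongest promoter peak (vertical axis, 0 for no promoter peak) for each gene of 4 families, as points, in replicate 1 and replicate 2, with the median (horizontal tick) and quartiles (vertical line) beside them, and those of all coding genes at the right. The 78 mitochondrial ribosomal genes have no point at 0, while the other families have some.

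The open region of a member was centred on the start and more often a single peak than at other open promoters. The strongest peak was of usual width. Its median width in replicate 1 was 260 bp, both in the members and in coding genes with a peak in both libraries. In replicate 2 the widths were 200 and 220 bp. The midpoint of the strongest peak lay at a median of -20.5 bp from the nearest start in replicate 1 and -22.5 bp in replicate 2, with minus for upstream. It was within 100 bp of a start in 70 members (89.7%) and 69 members (88.5%), against 65.7% and 67.8% of coding genes with a peak in both libraries. A single promoter peak was found at 50 members (64.1%) in replicate 1 and 35 (44.9%) in replicate 2, against 43.6% and 24.3%. The members had a median of 4 annotated starts and those genes 5. Like families came near the members. In replicate 1 the strongest peak lay within 100 bp at 70 of 83 cytosolic ribosomal genes with a peak, 67 of 79 oxidative phosphorylation genes and 40 of 47 proteasome genes. A single peak was found at 48, 47 and 28 of these. In the deposited segments where the cut rate passed a false discovery rate of 0.05, a median of 580 bp in replicate 1 and 724 bp in replicate 2 lay within 1 kb of the 5′ end of a member, against 746 and 911 bp for coding genes with a peak in both libraries. That sum was 0 in both libraries for Mrpl35 and Mrps24 and 0 in replicate 1 for Mrpl33, whose annotated 5′ ends lie over 1 kb from the start that was open. Mrpl33, Mrpl35, Mrps24 and Mrpl20 were also the only 4 members with a CpG observed over expected ratio under 0.4 around the 5′ end, and the family median was 0.72, equal to that of coding genes with a peak in both libraries.

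Footprints, short stretches within open DNA where cuts are depleted and a bound protein may shield the DNA, were found in both libraries at nearly all members. Within 1 kb of a start the members held 426 footprints in replicate 1 and 441 in replicate 2, with a median of 5 per gene in each. At 76 of 78 members at least 1 footprint of replicate 1 overlapped 1 of replicate 2, where the background over all coding genes was 53.9% and 89.5% of those with a peak in both libraries had one. Those genes had a median of 6 footprints in each library and 3 shared, against 2.5 shared in the members. Of the 426, 241 (56.6%) overlapped a footprint of replicate 2, and 32.2% did when the places were moved by 50 bp. Over all coding genes the values were 52.3% and 29.9%. Mrpl48, a large-subunit protein with 10 annotated starts, had most, at 14 shared footprints, followed by Mrpl45, Mrpl51, Mrps14 and Mrps18b with 7 each. Only Mrps11 and Mrpl46 had none. They share 1 promoter peak, with signals of 1.53 and 2.81, and each counted 2 footprints in replicate 1 and 0 in replicate 2.

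The footprints were concentrated just upstream of the start. Around the annotated start nearest the peak, 37.1% of members had a footprint over position -29 in replicate 1 and 42.8% over position -34 in replicate 2, the highest values of an 11 bp running mean. The other coding genes with a peak reached 24.6% at -48 and 26.6% at -49. Farther upstream the order turned: between 151 and 300 bp before the start a mean of 3.97% of members in replicate 1 and 3.21% in replicate 2 had a footprint at a position, against 6.57% and 6.81% of the other genes.

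**Figure D3:**
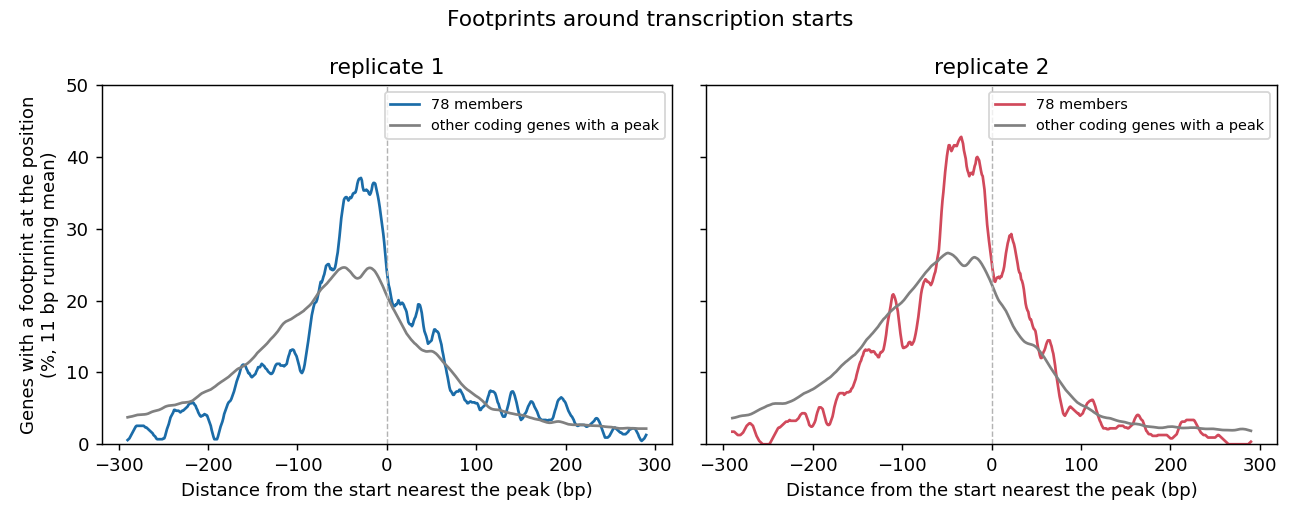
Share of genes with a footprint (vertical axis, percent, 11 bp running mean) by distance from the annotated start nearest the peak (horizontal axis, bp), in replicate 1 and replicate 2, for the 78 members in colour and the 13109 other coding genes with a peak in grey. The members reach 37.1% and 42.8% just upstream of the start, above the 24.6% and 26.6% of the other genes.

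Matches to the ETS, YY1 and NRF1 motifs were more frequent in the family than in other promoters. In the window from 250 bases before to 50 after the gene's 5′ end, CCGGAAG (ETS) was found on either strand at 27 members (34.6%), where 10.8% of all coding genes and 16.1% of those with a peak in both libraries had it. AANATGGCG (YY1) was found at 11 members (14.1%), against 2.9% and 4.4%. GCGCNTGCGC (NRF1) was found at 12 members (15.4%), against 5.98% and 9.41%. At least 1 of the 3 was present at 40 members (51.3%), against 17.6% and 26.6%, at least 2 at 10 members, and all 3 at 0 members. GGGCGG (SP/KLF), the most common of the motifs at open promoters, was found at 35 members (44.9%), near the 43% of all coding genes and under the 60.3% of those with a peak.

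The other 9 motifs stood nearer the background or were found in few members. CCAAT was found at 28 members (35.9% against 39% of all coding genes), CAGCTG, the E-box of muscle factors, at 16 (20.5% against 15.6%), CACGTG, the E-box of MYC and USF, at 5 (6.41% against 7.74%), and TATAAA at 5 (6.41% against 12.6%). ACTACAA, the ZNF143-like motif, was found at 6 members (7.69% against 3.7%), CTCGCGAG, the ZBTB33-like motif, at 3 (3.85% against 1.21%), CTANNNNTAG (MEF2) at 4 (5.13% against 3.58%), and TGACGTCA (CRE) at 2 (2.56% against 2.43%). TNAAGGTCA, the motif of the oestrogen-related receptors, was found at 0 members, where 1.22% of all coding genes had it. A match shows only that these letters are present in the window.

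**Figure D4:**
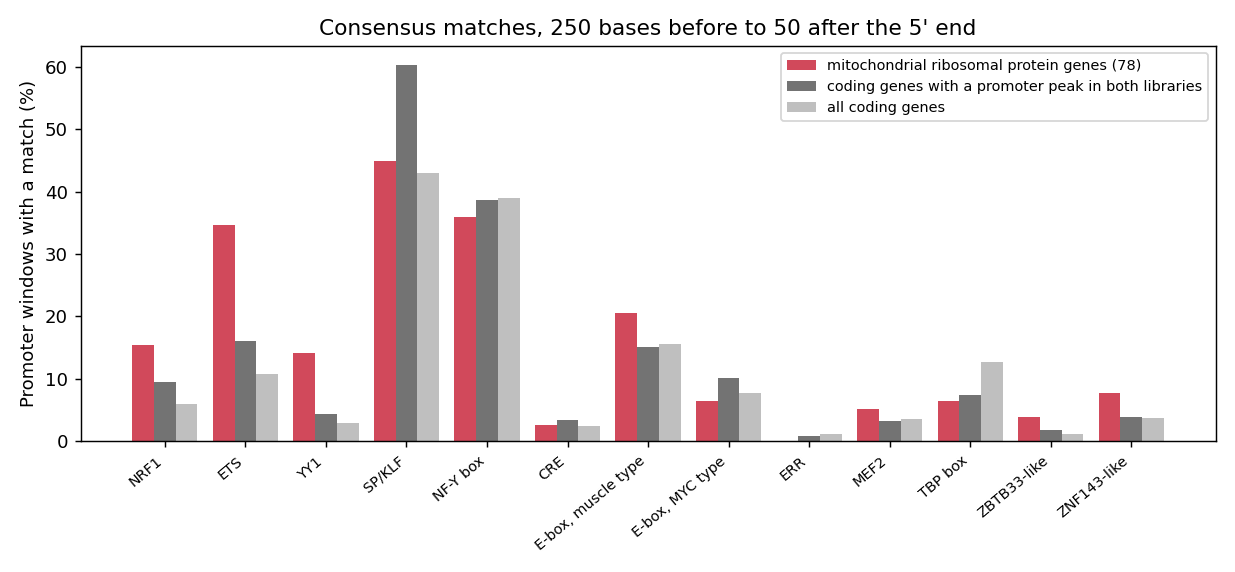
Share of promoter windows with at least 1 match (vertical axis, percent, from 0) for each of the 13 motifs searched, in the 78 members (red), the coding genes with a promoter peak in both libraries (dark grey) and all coding genes (light grey). ETS, at 34.6% of members, and YY1, at 14.1%, stand above both backgrounds, and SP/KLF, at 44.9%, stands under that of genes with a peak.

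Since 3 members were open at a start over 1 kb from their 5′ end, the motifs were also placed relative to the start nearest the peak, a window added after the data were seen. There YY1 was found at 13 members (3.46% of all coding genes), ETS at 30 (11.9%) and NRF1 at 13 (6.72%). The YY1 matches lay close to the start: their median position was 18 bp, that is downstream of the start, 9 of 13 (69.2%) lay downstream and 10 of 13 (76.9%) read on the strand of the gene. At other coding genes with a peak the median was 3 bp, with 51.9% downstream and 65.3% on the strand of the gene. The 13 are shown with 10 bases on either side and the match in capitals, on the strand of the match, because the ATG inside the motif is an annotated start codon at most of them.
Mrpl27 (chr11:94653789-94653817, plus strand): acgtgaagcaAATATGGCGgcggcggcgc
Mrpl35 (chr6:71823743-71823771, minus strand): ggcaggctgcAAGATGGCGgcttccatct
Mrpl36 (chr13:73328431-73328459, minus strand): ggtcaccggcAAGATGGCGgcggtgctga
Mrpl37 (chr4:107066822-107066850, minus strand): tgcacgggcaAAGATGGCGgcgtccaggt
Mrpl42 (chr10:95501904-95501932, minus strand): agattgaagcAAGATGGCGagcgcgcggt
Mrpl58 (chr11:115403762-115403790, plus strand): ctgggaggtgAACATGGCGaccgcctggg
Mrps10 (chr17:47368894-47368922, plus strand): tcagggcaccAAGATGGCGgcgcgcgcag
Mrps11 (chr7:78783013-78783041, minus strand): ggaagacagaAAGATGGCGgcgcccgtag
Mrps18a (chr17:46111005-46111033, plus strand): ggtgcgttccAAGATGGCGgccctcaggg
Mrps24 (chr11:5707647-5707675, minus strand): gcgccggcccAAGATGGCGtggtccgcgt
Mrps27 (chr13:99344790-99344818, plus strand): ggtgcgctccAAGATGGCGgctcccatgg
Mrps30 (chr13:118387219-118387247, minus strand): gcggcgggcgAAAATGGCGgcggccaggt
Mrps7 (chr11:115603852-115603880, minus strand): gggcggctgcAATATGGCGgaggcggaag

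At 8 of the 13 the ATG of the match was an annotated start codon of the member itself (61.5%), as in Mrps18a, Mrps27, Mrps30 and Mrpl58, and the same held for 211 of 723 matches (29.2%) at other coding genes with a peak. At 3 more it was the start codon of the gene on the other side: that of Ndufs6 in the Mrpl36 promoter, that of Gga3 in the Mrps7 promoter and that of Mrpl46 in the Mrps11 promoter. In the remaining 2, Mrpl37 and Mrpl42, it was no annotated start codon. The comparison with start codons was added after the sequences were seen.

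Of the 3 motifs, NRF1 was the one most often inside footprints. Of 16 NRF1 matches in 13 members, 15 (93.8%) overlapped a footprint of replicate 1 and 12 (75%) a footprint of replicate 2, against 21.9% and 28.1% when the matches were moved by 50 bp. At other genes with a peak the shares were 87.0% and 79.8%. The 12 matches that lay in footprints of both libraries are shown, with the match in capitals and 10 bases on either side.
Mrpl12 (chr11:120484546-120484575, plus strand): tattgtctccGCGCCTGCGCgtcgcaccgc
Mrpl17 (chr7:105811117-105811146, plus strand): taccgcgtttGCGCGTGCGCatcagagcct
Mrpl36 (chr13:73328479-73328508, minus strand): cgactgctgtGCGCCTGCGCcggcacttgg
Mrpl39 (chr16:84735350-84735379, minus strand): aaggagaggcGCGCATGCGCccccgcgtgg
Mrpl44 (chr1:79775973-79776002, minus strand): ctagtgtactGCGCGTGCGCaagtgcttct
Mrpl45 (chr11:97315586-97315615, minus strand): agagccagctGCGCCTGCGCaggaggcttc
Mrpl45 (chr11:97315668-97315697, minus strand): cagtgggttcGCGCGTGCGCaatgaaacca
Mrpl45 (chr11:97315721-97315750, plus strand): tggagagcgtGCGCGTGCGCgcgactcacc
Mrpl57 (chr14:57826172-57826201, minus strand): gacgccttctGCGCCTGCGCaggattcaaa
Mrpl9 (chr3:94443298-94443327, plus strand): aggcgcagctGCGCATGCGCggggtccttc
Mrps26 (chr2:130563745-130563774, minus strand): gccagcgcctGCGCCTGCGCccggcccgga
Mrps9 (chr1:42851218-42851247, plus strand): tgggaggtctGCGCCTGCGCagtctccagg

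Mrpl45 carried 3 of them, at -115.5, -33.5 and 19.5 bp from its start, and was the only member with more than 1 in footprints of both libraries. Mrps26 has 2 overlapping matches, of which 1 is shown. The match of Mrps21 lay in no footprint of either library. The 13 members with an NRF1 match had median percentiles of 90.7 and 97.4, and the 65 without 86.3 and 96.6.

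ETS matches were in footprints less often. Of 36 matches in 30 members, 17 (47.2%) overlapped a footprint of replicate 1 and 22 (61.1%) of replicate 2, against 22.2% and 44.4% for moved places, and 15 (41.7%) did in both. At other genes with a peak the shares were 38.4% and 40.9%, and 26.8% in both. The median position of the matches in the members was -29 bp, and 26 of 36 (72.2%) lay within 50 bp of the start, against 57.8% at other genes with a peak. Mrpl20 and Mrpl58 were the members with 2 ETS matches that both lay in footprints of both libraries, and these 4 are shown.
Mrpl20 (chr4:155803548-155803576, plus strand): ctagaggcgccCCGGAAGacagtgctcgc
Mrpl20 (chr4:155803602-155803630, plus strand): tgaccgttgacCCGGAAGcgcttctggca
Mrpl58 (chr11:115403724-115403752, plus strand): ctggcggaccgCCGGAAGagtgagcaccg
Mrpl58 (chr11:115403739-115403767, plus strand): aagagtgagcaCCGGAAGcggtcctggga

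YY1 matches overlapped a footprint in 6 of 13 cases in each library (46.2%, against 30.8% for moved places) and in both libraries in 4 (30.8%), those of Mrpl27, Mrpl37, Mrps10 and Mrps7. The shares were alike at other genes with a peak, at 46.2% in replicate 1, 43.2% in replicate 2 and 31.4% in both. Members with a match to any of the 3 motifs were not the stronger ones. Their median percentiles were 86.1 and 96.4 (n = 46 genes), and those of the members without 92.4 and 97.8 (n = 32 genes).

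**Figure D5:**
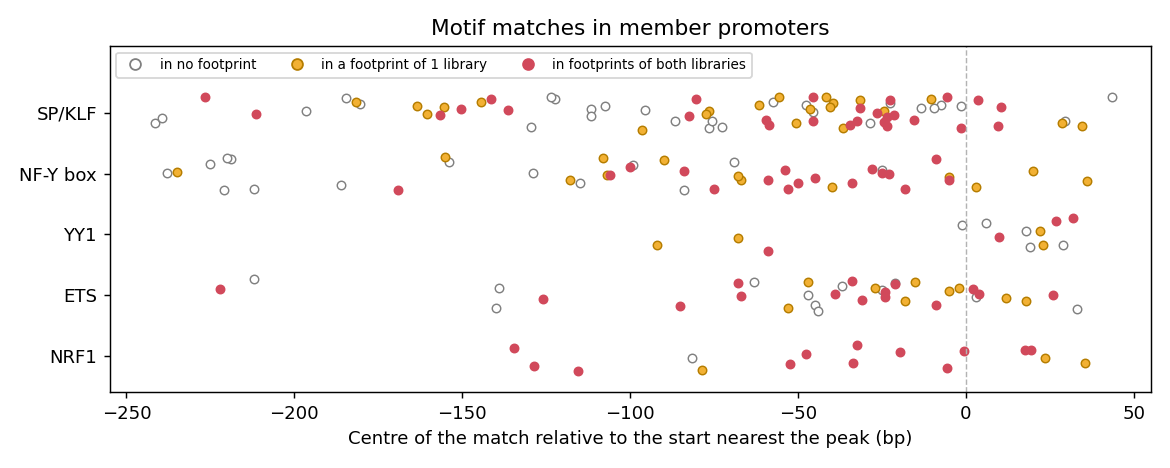
Position of each motif match in the members (horizontal axis, bp from the start nearest the peak to the centre of the match) for 5 motifs, filled red when in footprints of both libraries, yellow when in 1 and open when in none. NRF1 matches are mostly red, at 12 of 16, and 9 of 13 YY1 matches lie downstream of the start.

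Many members shared their promoter with a gene on the opposite strand. A start on the other strand within 1 kb upstream of the 5′ end, transcribed away from the member, was found at 20 of 78 members (25.6%), where the background was 10.8% of all coding genes and 16.1% of those with a peak in both libraries. The share was 25.9% in the oxidative phosphorylation genes, 18% in the proteasome genes and 15.4% in the cytosolic ribosomal protein genes. The partner was protein-coding at 18. The shortest distances were 3 bp at Mrps21, with the antisense RNA gene C920021L13Rik, 26 bp at Mrpl54 with Apba3, 29 bp at Mrps18c with Helq and at Mrps34 with Eme2, 45 bp at Mrps18b with Ppp1r10 and 49 bp at Mrpl57 with Ska3. When any start was used and overlapping 5′ ends were allowed, a measure added after the data were seen, 33 members (42.3%) had a coding partner within 1 kb, where 12.3% of all coding genes and 19.0% of those with a peak did.

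Of the 33 partners, 28 were neither members, oxidative phosphorylation genes nor genes of the list for mitochondrial translation given below. The partners were not sorted by the proteasome and cytosolic ribosomal lists. Those named next were picked after their identity was seen. Mrps11 and Mrpl46, 1 gene of each subunit, are paired with each other at 30 bp. Mrpl47 is paired with Ndufb5 at 20 bp and Mrpl36 with Ndufs6 at 29 bp, both subunits of respiratory complex I. Mrps12 is paired with Sars2, the mitochondrial seryl-tRNA synthetase, at 172 bp, and Mrpl43 with Twnk, the helicase that replicates mitochondrial DNA, at 116 bp. Mrpl49 is paired with Fau, the precursor of a cytosolic ribosomal protein, at 59 bp, Mrpl32 with the proteasome gene Psma2 at 75 bp, and Mrpl18 with the chaperonin gene Tcp1 at 16 bp. Whether such genes are more common here than among partners of other genes was not tested.

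Members with a partner had the stronger promoters. Their median percentiles were 92.1 and 97.8 (n = 33 genes), and those of the members without 85.1 and 96.4 (n = 45 genes). The same order held over coding genes with a peak in both libraries, at 92.8 and 98.1 with a partner and 86.2 and 96.6 without. In a shared open region the part of each gene cannot be told apart: the strongest peak lay nearer a start of another coding gene than of the member at 14 members in each library, at 10 of them in both.

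Distal accessible sites were few. Within the gene body and 10 kb either side the members held 190 shared peaks, that is merged overlapping peaks of the libraries, and 39 of these were distal, with a midpoint over 1 kb from every annotated start. They belonged to 18 members (23.1%), where the background was 38.3% of all coding genes, but the windows were shorter, with a median of 27.9 kb against 37.4 kb. Coding genes with a peak in both libraries had one at 50.5%, with a median window of 45.6 kb. The share was 20.9% in cytosolic ribosomal (23.2 kb), 37.6% in oxidative phosphorylation (27.5 kb) and 32% in proteasome genes (31.6 kb). Of the 39, 14 lay in gene bodies, all in introns, 6 upstream and 19 downstream. The muscle E-box CAGCTG was found in the central 150 bp of 10 (25.6%), against 24.7% of all 27318 distal shared peaks. Mrps18a had most, 5, followed by Mrpl23, Mrpl33, Mrpl45, Mrpl58, Mrps17 and Mrps27 with 3 each. Those of Mrpl23 lay downstream, at 15615.5 to 17445 bp from its 5′ end, and the nearest other coding gene by start was the fast skeletal troponin gene Tnnt3, 34171.5 to 36001 bp away.

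The strongest distal site lay in an intron of Mrps27, at mm10 chr13:99353261-99353460, 8550 bp from the 5′ end. Its signal was 10.1 in replicate 1 and 38.9 in replicate 2, percentiles 99.1 and 99.7 among shared peaks, whereas the promoter of Mrps27 itself had 4.10 and 11.4. In replicate 2 it was above the promoter peak of every member, and in replicate 1 above all but Mrps18b and Mrpl41. Its sequence, on the plus strand, is shown with CCAAT and GGGCGG matches of either strand in capitals.
Mrps27 (chr13:99353261-99353460, plus strand): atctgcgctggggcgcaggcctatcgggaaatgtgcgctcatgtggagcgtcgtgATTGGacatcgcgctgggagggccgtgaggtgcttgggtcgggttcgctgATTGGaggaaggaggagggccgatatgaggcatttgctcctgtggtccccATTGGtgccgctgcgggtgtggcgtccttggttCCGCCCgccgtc

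The stretch held 3 CCAAT matches, each overlapped by a footprint in both libraries, and 1 SP/KLF match. Of all distal shared peaks 0.542% had as many CCAAT matches in their central 200 bp. The CpG observed over expected ratio was 0.926, reached by 1.12% of distal shared peaks, whose median was 0.243. These measures were chosen after the sequence was seen, and no start of any gene is annotated in GENCODE M21 within 1 kb of it.

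Other genes of mitochondrial translation, listed with genes of mitochondrial transcription and general regulators, were open to nearly the same degree. Of the 73 genes of this list found in the annotation, 71 (97.3%) were open in both libraries, where the background was 60.2% of all coding genes. The medians over the whole list, regulators included, were 88.4 and 97.1. These were 5 of 5 ribosomal proteins with other symbols, 19 of 19 assembly factors, 15 of 15 translation factors, 17 of 17 aminoacyl-tRNA synthetases, 5 of 7 genes of mitochondrial transcription and 10 of 10 regulators. Mterf1a and Mterf1b, paralogues of a mitochondrial transcription termination factor, had no promoter peak in either library. Among the regulators, Sp1 had the strongest promoter, with signals of 18.5 and 60.9, Nrf1 had 2.80 and 6.20, Gabpa, the DNA-binding subunit of GABP, 3.48 and 9.58, and Yy1 7.13 and 14.9. Ppargc1a, the coactivator that raises mitochondrial biogenesis, had the lowest, 1.20 and 1.22, percentiles 71.0 and 85.2. Tfam, which packages mitochondrial DNA, had 2.68 and 8.47, Polrmt, the mitochondrial RNA polymerase, 4.53 and 9.23, and Tufm, the mitochondrial elongation factor Tu, 5.05 and 13.5. Accessibility of a promoter is not a measure of its transcription, which was not analysed here.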

How the data were processed

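DNase-seq was measured in 2 libraries of 1 group. Per the READMEs deposited with each library, the authors called peaks, footprints and cut-rate segments for each library on its own from filtered alignments on mm10. No header, label or README names the aligner or the callers. The deposited peak lists hold a signal value per peak, whose scale is not stated, so it was ranked within a list only. The deposited p-value columns hold, for cut-rate segments, a false discovery rate of at most 0.05 and, for every footprint, 0.01, so neither ranks a site. Sequencing depth is unknown, and no interval could be given.

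The longer of the 2 peak lists of each library was used, as many as 66984 and 258342 peaks. Genes and starts came from GENCODE M21, with 1 record per symbol, and sequences from RefSeq GRCm38.p6, the build of the files. Promoters were 1 kb either side of any start of a gene, peaks were called overlapping from 1 bp, and 13 motifs were searched on both strands. Counts and medians stand beside those over all 21911 coding genes, and no test was made, since genes are not replicates. Alternatives changed the list, the widths, the libraries and the windows.

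The members, lists and measures were chosen with earlier results of these data known. Named genes are the 8 highest and 8 lowest by mean percentile, the 5 with most shared peaks, distal peaks and shared footprints, those without shared footprints, the 6 closest divergent pairs and 15 fixed members. Of the 5 with most shared peaks, Mrpl53 and Mrpl49 had 6 shared peaks in the window, as Mrpl48 and Mrpl58 did, and Mrps18b had 9. Mrps18a also had 6, and ties were broken by symbol. Of the pathway list, Mtrfr was not matched to the annotation. The symbol families and pathway lists were not trimmed. Software was pysam 0.24.0, pandas 2.3.3, numpy 2.4.6, matplotlib 3.10.9 and scipy 1.17.1 under Python 3.11.15. The overlap, promoter and motif functions were tested on simulated data.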

Additional observations from a re-analysis of the deposited data

How the results depend on the processing

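The number of members with a promoter peak in both libraries was 75 to 78 under every alternative tried: 76 with the shorter peak lists, without Mrpl23 and Mrps34, 75 with the 5′ end alone, without Mrpl33, Mrpl35 and Mrps24, and 78 under the others, each library alone included. The median percentile was 86.8 to 97.1. A shared footprint was found at 73 to 76 members, or at 61 when the footprints of replicate 2 were moved by 50 bp. With 1 library left out, where no sharing is required, 78 members had a footprint in replicate 1 and 76 in replicate 2. Distal shared peaks changed most: 24 with the shorter lists, 14 in gene bodies alone, 179 with flanks of 50 kb, and 55 to 305 with 1 library left out, where no sharing is required. Head-to-head members numbered 18 to 23, or 33 with any start. With 500 bases either side of the 5′ end NRF1 was found at 19 members (8.80% of all coding genes) and ETS at 42 (19.2%), and within the strongest shared promoter peak YY1 at 17 (3.98%). The footprint counts were not run with other peak lists, on which they do not depend. No paired analysis was possible because the libraries form 1 group. The unknown depth and the 2 libraries, which differ in peak number, limit all comparisons of strength to ranks within a library, and the hybrid's other allele was not analysed here.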
